A study of Rattus norvegicus with 6 samples.

Results

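The respiratory chain and the ATP synthase of mitochondria were followed gene by gene in CD163+ macrophages of the rat brain, with and without ischemia. The members were all genes whose symbol in the array annotation starts with Nduf, Uqcr, Atp5 or Cox4 to Cox8, together with Sdha, Sdhb, Sdhc, Sdhd, Cyc1 and Cycs, where a probe set named a single gene. This gave 87 genes of the 14217 named on the array, with the probe set of highest mean over the 6 arrays standing for each gene. A gene was tested where at least 3 arrays exceeded 7.16 on the log2 scale, the 40th percentile of all values, and 80 of the 87 members passed among 9928 genes tested. The other 7 members, Ndufb8, Cox4i2, Cox6c-ps1, Cox7a1, Cox7b2, Cox8b and Ndufa4l2, were too dim and have values but no test. A further 9 probe sets named several genes at once and were not used here. Cycs, which encodes cytochrome c, Cox7a2, Uqcrb, Ndufs5, Ndufa10, Atp5mc1 and Atp5mc2 were read only by such shared probe sets, so these genes have no value, while Cox5a also had a probe set of its own.

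The arrays held RNA of CD11b+CD163+ cells, which are macrophages of the perivascular spaces and the meninges (border-associated macrophages, BAMs), sorted by flow cytometry from the right hemisphere of adult male Sprague-Dawley rats. The ischemia group was 3 rats, numbered 64, 65 and 66, with the right middle cerebral artery occluded for 1 h and 16 h of reperfusion, and the control group was 3 rats without ischemia, numbered 63, 68 and 69. No rat carried a transgene, each array held the cells of 1 rat, and no number pairs a control with an ischemic rat. The labels do not say that controls had a sham operation. Cd163 itself averaged 13.57 over the 6 arrays. The gate selects on CD11b and CD163 and does not separate resident macrophages from other CD163+ cells that could have entered the tissue.

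Complexes I to IV pass electrons from NADH and succinate to oxygen. Complexes I, III and IV pump protons across the inner mitochondrial membrane, and complex V, the ATP synthase, uses that gradient to make ATP. Most subunits are encoded in the nucleus and imported, while the innermost subunits of complexes I, III, IV and V are encoded by mitochondrial DNA. Macrophages shift between glycolysis and respiration as they are activated, and hypoxia is known from other cells to change the use of some subunit isoforms.

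Of the 80 members tested, 22 rose after ischemia, 0 fell and 58 did not pass the test. The 22 include Ndufaf1, an assembly factor that met the filter only in ischemic rats, and 21 are subunits. A gene was called at an adjusted p under 0.01 in limma (a moderated linear model per gene) after Benjamini-Hochberg adjustment over the 9928 genes. Each fold change is the log2 mean of ischemia less that of control, followed by its standard error (SE). Over all genes tested, 22.8% were called in either direction, 16.8% rose and 5.99% fell, against 27.5% of the members that rose. Among the 4235 genes tested with a mean of at least 10, 21.0% rose. In 61 members all 3 ischemic rats lay above all 3 controls, where 35.7% of all genes did so and 55.6% had groups that did not overlap on either side. At the looser adjusted p under 0.05, 46 members rose, against 27.4% of all genes. Among members tested, only Cox7a2l, a subunit known for its part in joining complexes III and IV, had all ischemic rats below all controls, an order that 19.9% of all genes showed. The median log2 fold change was 0.47 over the members and 0.10 over all other genes tested. It was positive for 77 members and negative for 3, Ndufb4, Cox6b2 and Cox7a2l, against 5683 positive and 4245 negative of all genes tested. At an unadjusted p under 0.05 in limma, 58 members passed, of which Cox7a2l alone was lower. Over all genes, 5014 of 9928 passed that unadjusted level. In such bulk samples, fewer or more cells of a type and less or more RNA per cell cannot be told apart.

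**Figure D1:**
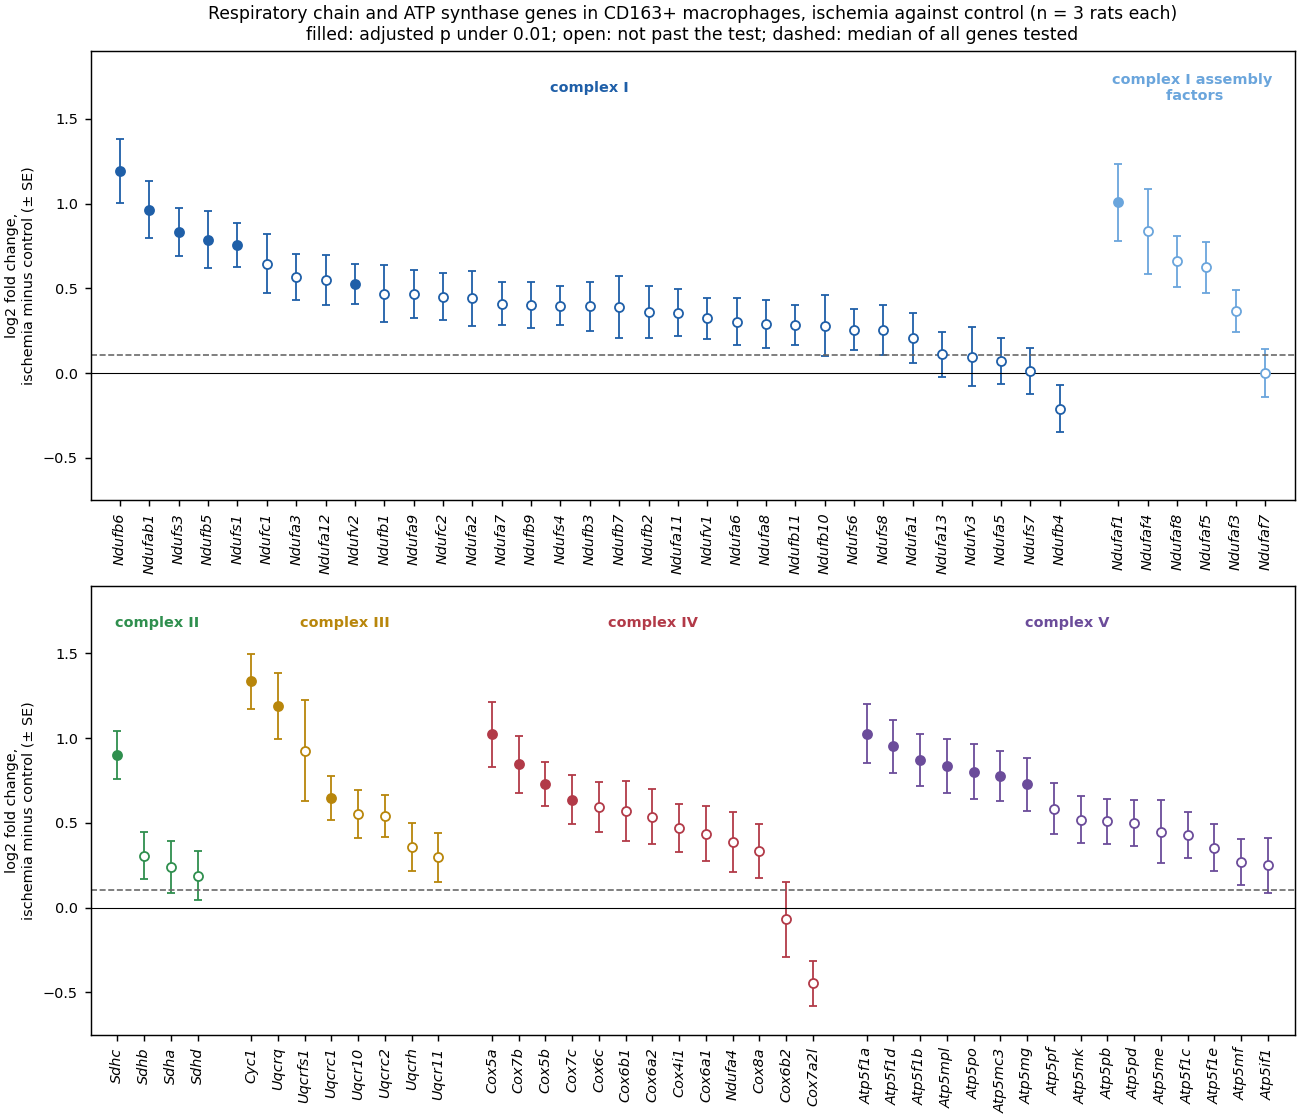
Log2 fold change of the 80 members tested, ischemia minus control, with its SE on the vertical axis and the genes grouped by complex and ordered by size on the horizontal axis. Filled points passed an adjusted p under 0.01 and open points did not, and the dashed line at 0.10 is the median of all genes tested. Of the 80 points, 77 lie above 0, and the 22 filled points run between 0.52 (Ndufv2) and 1.33 (Cyc1).

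The count of 22 depended on single rats and on how the arrays were scaled. Without ischemic rat 65 it was 1 and without ischemic rat 66 it was 2, and without control 63 or control 69 it was 5 each time. These are 1.25%, 2.5%, 6.25% and 6.25% of the members, below the 6.86%, 8.24%, 10.1% and 9.92% of all genes that rose. Without ischemic rat 64 or control 68, 23.75% and 18.75% of the members rose, against 15.8% and 11.2% of all genes. Cyc1 was the only member called with each of the 6 rats left out in turn. The 43 cytosolic ribosomal protein genes tested, which serve here as a second reference, also lay higher after ischemia, with a median of 0.40 and 2 calls. When each array was centred on the mean of these genes, the median of all genes tested moved to -0.33 and the members' median was 0.03. Cyc1 was then the only member that rose (1.25%, against 3.96% of all genes). Cox7a2l was the only one that fell, where 13.7% of all genes fell. Centring on the array median moved the median of all genes to -0.07 and left 14 members that rose and 1 that fell, Cox7a2l, where over all genes the split was 1189 that rose to 1179 that fell, against 1664 to 595 with the values as deposited. As deposited, the members' median exceeded that of the other genes by 0.37, a distance that centring cannot move, since it shifts all genes of an array alike. It was 0.32 when quantile normalization was repeated, 0.15 with a filter on low variability, which left 46 members, and 0.34 to 0.45 with a rat left out. Centred on ribosomal protein genes, 45 of the 80 members were positive and the medians of complexes I and II were below 0. Array weights gave 37 members that rose (46.25%, against 23.9% of all genes). Limma without moderation gave 0, as it did over all genes. Directions below are those of the deposited values unless another scaling is named.

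**Figure D2:**
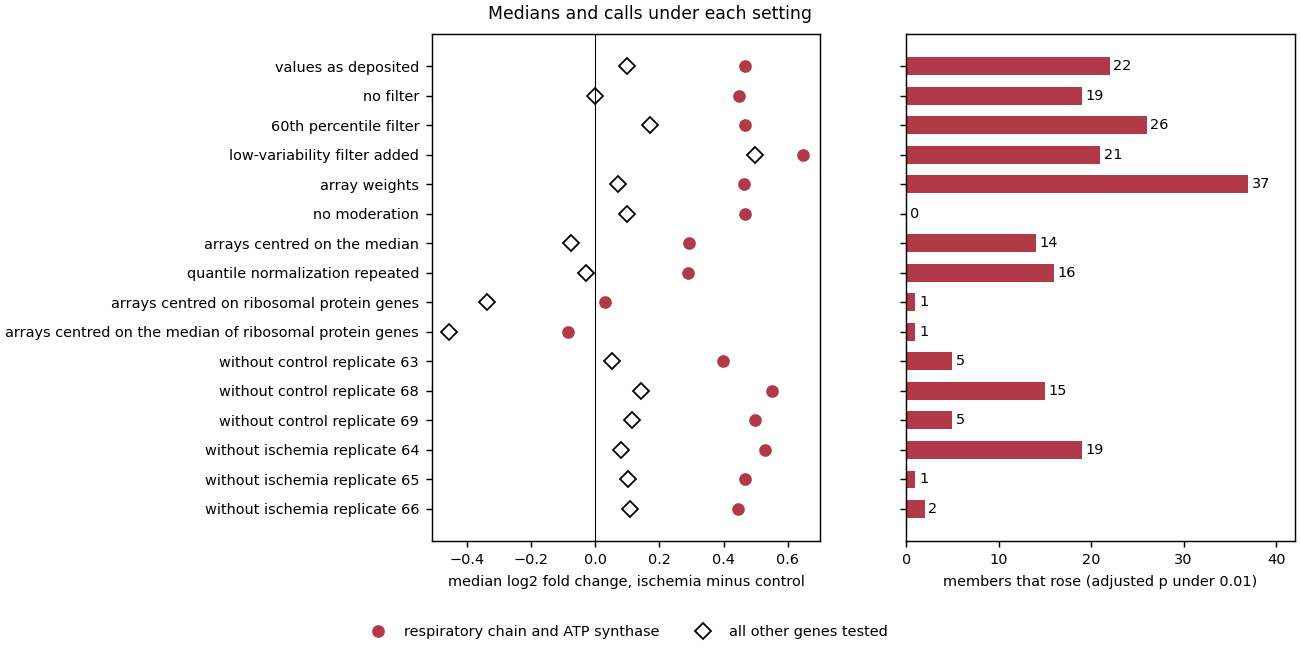
Left, the median log2 fold change (ischemia minus control) of the members and of all other genes tested under the settings listed. Right, the number of members that rose at an adjusted p under 0.01. The distance between the 2 medians is 0.37 as deposited, while the number of members that rose runs between 0 (no moderation) and 37 (array weights).

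The rats within a group differed. Set against the control mean, the median of the members was 0.40, 0.52 and 0.53 in ischemic rats 64, 65 and 66, against -0.18, 0.16 and 0.02 in controls 63, 68 and 69. Control 63 had the lowest control value in 70 of the 80 members, and in 5937 of all 9928 genes. Its array also had a highest value of 13.85, against 14.88 to 14.96 elsewhere, and lower upper percentiles than all 5 others. Quantile normalization gives arrays a common distribution, and whether this array was normalized with the others cannot be told from the deposited values. The 3′ to 5′ difference of the actin control probe sets, a sign of RNA length, was 0.17 to 0.24 on the ischemia arrays and 0.06 to 0.07 on the control arrays. The summed level of monocyte markers (7 of 8 listed genes on the array) was 15.40 to 15.93 on the log2 scale in ischemic rats and 14.41 to 14.84 in controls. In that list Vcan and Fn1, which encode matrix proteins, and Ly6c rose by 6.74, 5.96 and 4.68, while the groups overlapped for Ccr2 (0.43) and for F13a1 (-0.77), which is also in the BAM list. For granulocyte markers (8 of 12) it was 10.84 to 11.998 in ischemic rats and 9.93 to 10.30 in controls. S100a8, Lcn2 and Mmp9 rose by 3.36, 3.34 and 2.86, while S100a9 (2.19) and Csf3r (0.93) did not pass. Cxcr2 went the other way (-0.50) with overlapping groups, and Camp and Mmp8 were too dim to test. All control values of S100a8, Lcn2, Mmp9 and Vcan lay below 7.16. These genes met the filter only in ischemic rats, so their calls do not count as support. Microglial markers (5 of 7) gave 11.36 to 12.38 in ischemic rats and 12.99 to 13.17 in controls. P2ry12 fell by 1.78 and Gpr34 measured -1.71, whereas Sall1 overlapped (-0.13) and Tmem119 had all ischemic rats above all controls (0.61), without passing. Oligodendrocyte markers (5 of 6) gave 11.61 to 12.15 in ischemic rats and 12.88 to 13.87 in controls. The BAM markers (7 of 9) overlapped, at 15.86 to 16.73 in ischemic rats and 15.98 to 17.14 in controls. Only control 63 overlapped, while controls 68 and 69, at 17.14 and 16.95, lay above all ischemic rats. Of these 7 markers 6 were lower after ischemia and 1, Cd163 (0.54), was higher, with a median of -0.76. None of the 7 passed the test, and control 63 was the lowest control in all 7. Lymphocyte markers (5 of 6) gave 9.88 to 10.83 in ischemic rats and 8.84 to 9.32 in controls, where Cd2 rose by 1.58 and the other 4, Cd3e among them, were too dim to test. Control 63 stood above the other controls for endothelial markers (4 of 5), at 11.92 against 9.70 and 9.89. It did so too for mural and muscle markers (11.54 against 10.10 and 10.25) and for astrocyte markers (12.02 against 10.67 and 10.27). Ischemic rats lay at 10.31 to 11.10, 10.10 to 10.22 and 11.32 to 11.73 for these lists. Among the astrocyte markers Gfap rose by 2.07, with all ischemic rats above all controls. The groups overlapped for Aqp4 (-0.37), Slc1a2 (-0.60) and Slc1a3 (0.13), and Aldh1l1 was too dim to test. The part of these differences in the members' values was not tested.

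**Figure D3:**
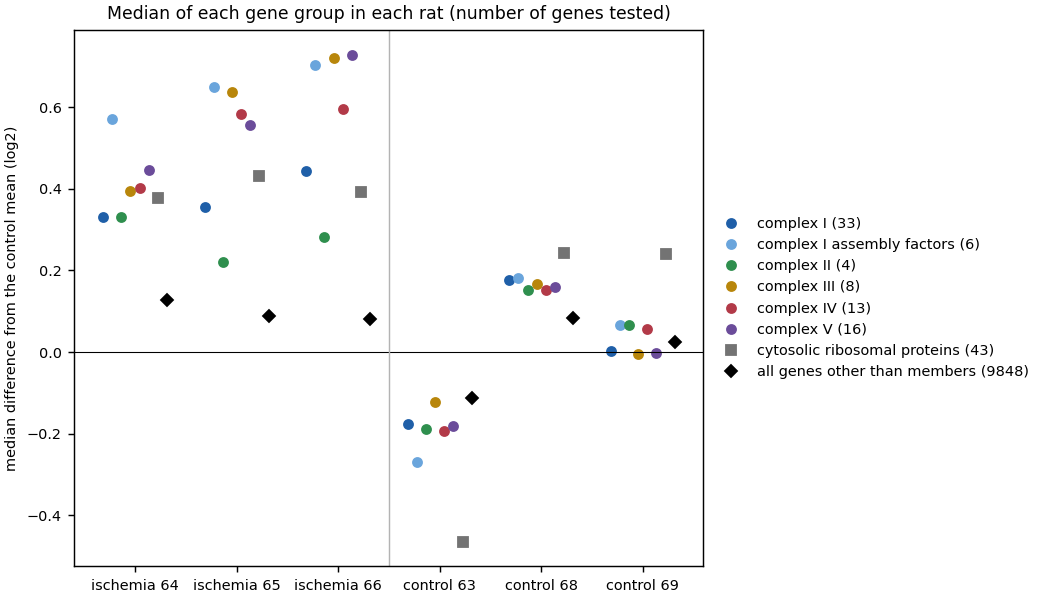
Median difference from the control mean (log2, vertical axis) of each complex, of cytosolic ribosomal protein genes and of all genes other than members, in each rat (horizontal axis), with the number of genes tested in the legend. Control 63 lies lowest in each group of genes, ribosomal proteins included at -0.46, and all 3 ischemic rats lie above all controls in each complex.

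Complex I, which takes electrons from NADH, had 33 subunits tested, of which 6 rose and 0 fell, with a median of 0.39. These 6 are 18.2%, near the 16.8% of all genes that rose. The 6 were Ndufb6, Ndufab1, Ndufs3, Ndufb5, Ndufs1 and Ndufv2. By the naming of the subunits, 3 of 9 tested Ndufs and Ndufv genes rose, with a median of 0.32, as did 2 of 10 Ndufb genes, with a median of 0.39. Of 11 Ndufa genes 0 rose, with a median of 0.36. At an unadjusted p under 0.05 in limma, 6 of these 11 passed, where 5014 of all 9928 genes did. The Ndufa genes reached at most 0.57 (Ndufa3), yet all 11 were positive and 8 had all ischemic rats above all controls. Ndufs4, Ndufs6 and Ndufs8, of the peripheral arm, measured 0.40, 0.26 and 0.25 and did not pass.

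Ndufb6, an accessory subunit of the membrane arm, measured 10.61, 10.94 and 11.20 in ischemic rats, against 9.59, 9.99 and 9.59 in controls. All ischemic rats lay above all controls by more than the range of either group. The log2 fold change was 1.19 ± 0.19 (SE, adjusted p = 0.00233), which is 2.29-fold, in limma with Benjamini-Hochberg adjustment, the test behind each adjusted p here. Ndufab1, the mitochondrial acyl carrier protein that is both a complex I subunit and part of mitochondrial fatty acid and iron-sulfur synthesis, gave 11.30, 11.60 and 11.80 in ischemic rats, against 10.43, 10.80 and 10.59 in controls. The groups did not overlap, and ischemic rat 64 was nearest to the controls. Its fold change was 0.96 ± 0.17 (SE, adjusted p = 0.00357). Ndufb5, another membrane arm subunit, had 12.27, 12.53 and 12.63 in ischemic rats, against 11.59, 11.96 and 11.51 in controls, again with rat 64 lowest among the ischemic rats, and 0.79 ± 0.17 (SE, adjusted p = 0.00761).

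The core subunits carry the flavin and the iron-sulfur clusters. Ndufs1, which holds several of these clusters, read 11.25, 11.38 and 11.44 in ischemic rats, against 10.53, 10.54 and 10.74 in controls. The groups were well apart, with all 3 controls at or below 10.74. Its fold change was 0.75 ± 0.13 (SE, adjusted p = 0.0032). For Ndufs3, a core subunit of the peripheral arm, the values were 10.62, 10.92 and 10.94 in ischemic rats, against 9.94, 10.12 and 9.93 in controls. No control reached an ischemic rat, and the difference was 0.83 ± 0.14 (SE, adjusted p = 0.00317). Ndufv2, an iron-sulfur subunit beside the flavin site, was at 11.36, 11.40 and 11.40 in ischemic rats, against 10.78, 10.95 and 10.87 in controls. The ischemic rats lay close together and above all controls, and the change of 0.52 ± 0.12 (SE, adjusted p = 0.00955) was the smallest among the members called.

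Other core subunits did not pass. Ndufv1, which binds NADH and the flavin, measured 11.25, 11.11 and 11.17 in ischemic rats, against 10.77, 10.89 and 10.90 in controls. Its groups did not overlap but the fold change of 0.32 ± 0.12 (SE, adjusted p = 0.063) was not past the test. Ndufs7, next to the quinone site, was at 12.02, 11.85 and 11.90 in ischemic rats, against 11.76, 12.09 and 11.88 in controls, with the groups interleaved. Its difference was 0.01 (95% interval -0.30 to 0.33), and centring the arrays on the median turned it to -0.16. Ndufs8 gave 10.67, 10.45 and 10.81 in ischemic rats, against 10.20, 10.50 and 10.46 in controls, an overlap by controls 68 and 69, with 0.25 ± 0.15 (SE, adjusted p = 0.205). Thus the core subunits of this single complex ran between 0.01 and 0.83. Ndufb4, a membrane arm subunit, was the only complex I member below 0, at 10.28, 10.28 and 10.54 in ischemic rats, against 10.45, 10.69 and 10.59 in controls. Its groups overlapped, and the 95% interval of the fold change ran between -0.53 and 0.10. Ndufa1, with the highest mean in the complex, had 12.93, 12.91 and 12.93 in ischemic rats, against 12.47, 12.92 and 12.76 in controls, and its difference was 0.21 ± 0.15 (SE, adjusted p = 0.289). Ndufa9 measured 12.34, 12.34 and 12.35 in ischemic rats, against 11.65, 12.09 and 11.89 in controls, without overlap, and 0.47 ± 0.14 (SE, adjusted p = 0.0324). A second, dimmer probe set of Ndufa9 was below the level for testing, with a difference of -0.11.

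Among 6 assembly factors of complex I within the naming rule, which build the complex and do not stay in it, the median was 0.64 and 1, Ndufaf1, passed the test, through a filter that it met only in ischemic rats. This is 16.7%, near the 16.8% of all genes that rose. Ndufaf1, which helps to build the membrane arm, measured 7.57, 7.49 and 7.85 in ischemic rats, against 6.32, 7.14 and 6.43 in controls. All ischemic rats lay above the controls, with control 68 well above the other controls. All 3 control values lay below 7.16, so its call does not count as support, and it was the only member called of which this held. Without the filter it did not pass. The fold change was 1.01 ± 0.23 (SE, adjusted p = 0.0095). Ndufaf8 was at 10.995, 11.11 and 11.08 in ischemic rats, against 10.12, 10.58 and 10.51 in controls, with no overlap, and 0.66 ± 0.15 (SE, adjusted p = 0.0105) placed it just outside the threshold. Ndufaf4 had 10.74, 10.93 and 10.73 in ischemic rats, against 9.59, 9.73 and 10.58 in controls, in which control 69 stood far above the other controls and close to the ischemic rats. Its difference of 0.84 ± 0.25 (SE, adjusted p = 0.0294) did not pass. Of 8 further assembly factors outside the naming rule, 1 (12.5%) rose, Acad9, at 0.64 (adjusted p = 0.00774 in limma), with a median of 0.30.

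Complex II oxidizes succinate and links the chain to the citric acid cycle, and all its subunits are nuclear. Of its 4 subunits 1 rose (25%, against 16.8% of all genes), with a median of 0.27. Sdhc, a membrane anchor that binds heme and quinone, measured 11.24, 11.53 and 11.39 in ischemic rats, against 10.35, 10.66 and 10.45 in controls. The groups did not overlap, and rat 64 was the lowest of the ischemic rats. The fold change was 0.90 ± 0.14 (SE, adjusted p = 0.00237) in limma. Sdhd, the other anchor, was at 11.14, 11.17 and 11.09 in ischemic rats, against 10.68, 11.07 and 11.08 in controls. All 3 ischemic rats lay above the controls, but controls 68 and 69 lay next to the lowest ischemic rat, and 0.19 ± 0.15 (SE, adjusted p = 0.328) did not pass. A second probe set of Sdhd gave 0.40 (adjusted p = 0.083 in limma). Sdha, the flavoprotein that oxidizes succinate, had 12.17, 12.16 and 12.28 in ischemic rats, against 11.73, 12.21 and 11.96 in controls, where control 68 lay among the ischemic rats, and 0.24 ± 0.15 (SE, adjusted p = 0.237). Sdhb, the iron-sulfur subunit, had 12.56, 12.32 and 12.36 in ischemic rats, against 11.998, 12.05 and 12.27 in controls and 0.31 ± 0.14 (SE, adjusted p = 0.109). The 2 catalytic subunits therefore did not pass while 1 of the 2 anchors did, and the difference between subunits was not tested. Of the 4 assembly factors of complex II, 1 (25%) rose, Sdhaf1, at 0.81 (adjusted p = 0.00932), and their median was 0.63.

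Complex III passes electrons on to cytochrome c. Its 8 members tested, with Cyc1 counted here, were all positive, 3 rose (Cyc1, Uqcrq and Uqcrc1) and the median was 0.60. These 3 are 37.5%, against 16.8% of all genes that rose. Cyc1, the cytochrome c1 that hands electrons to cytochrome c, measured 10.60, 11.10 and 11.01 in ischemic rats, against 9.45, 9.63 and 9.63 in controls. All ischemic rats stood far above all controls. The log2 fold change of 1.33 ± 0.16 (SE, adjusted p = 0.00091), or 2.52-fold, was the largest of all members. Without each rat in turn it stayed between 1.24 and 1.49, and after centring on ribosomal protein genes it was 0.90 (adjusted p = 0.00891 in limma).

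Uqcrq, a small subunit of the membrane part, was at 11.26, 11.69 and 11.80 in ischemic rats, against 10.12, 10.63 and 10.43 in controls. Its groups did not overlap, with rat 64 lowest among the ischemic rats, and the fold change was 1.19 ± 0.19 (SE, adjusted p = 0.0025). Uqcrc1, a large core protein on the matrix side, had 12.16, 12.27 and 12.31 in ischemic rats, against 11.48, 11.76 and 11.56 in controls, also without overlap, and 0.65 ± 0.13 (SE, adjusted p = 0.00638). Its partner Uqcrc2 measured 12.25, 12.41 and 12.40 in ischemic rats, against 11.71, 11.82 and 11.90 in controls. The groups were again apart, but 0.54 ± 0.12 (SE, adjusted p = 0.0102) was just outside the threshold, and a second probe set of this gene gave 0.55 (adjusted p = 0.0446). The Rieske iron-sulfur protein Uqcrfs1 was the member with the widest spread in a group, at 10.78, 11.86 and 11.97 in ischemic rats, against 10.51, 10.81 and 10.51 in controls. Ischemic rat 64 lay within the range of the controls, while rats 65 and 66 lay well above it. The fold change of 0.92 ± 0.30 (SE, adjusted p = 0.0378) did not pass, and it was 1.302 (adjusted p = 0.000896 in limma) without rat 64. Uqcr11, the brightest member of complex III that did not pass, had 12.53, 12.63 and 12.74 in ischemic rats, against 12.16, 12.53 and 12.32 in controls, overlapping by control 68, and 0.30 ± 0.14 (SE, adjusted p = 0.131). Of 5 tested assembly factors of complex III, 3 rose (60%, against 16.8% of all genes), with a median of 0.64. Bcs1l, which inserts the Rieske protein, led them with 8.75, 8.97 and 8.90 in ischemic rats, against 7.19, 7.48 and 6.99 in controls. The groups were far apart, and the fold change was 1.65 (adjusted p = 0.000431 in limma).

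**Figure D4:**
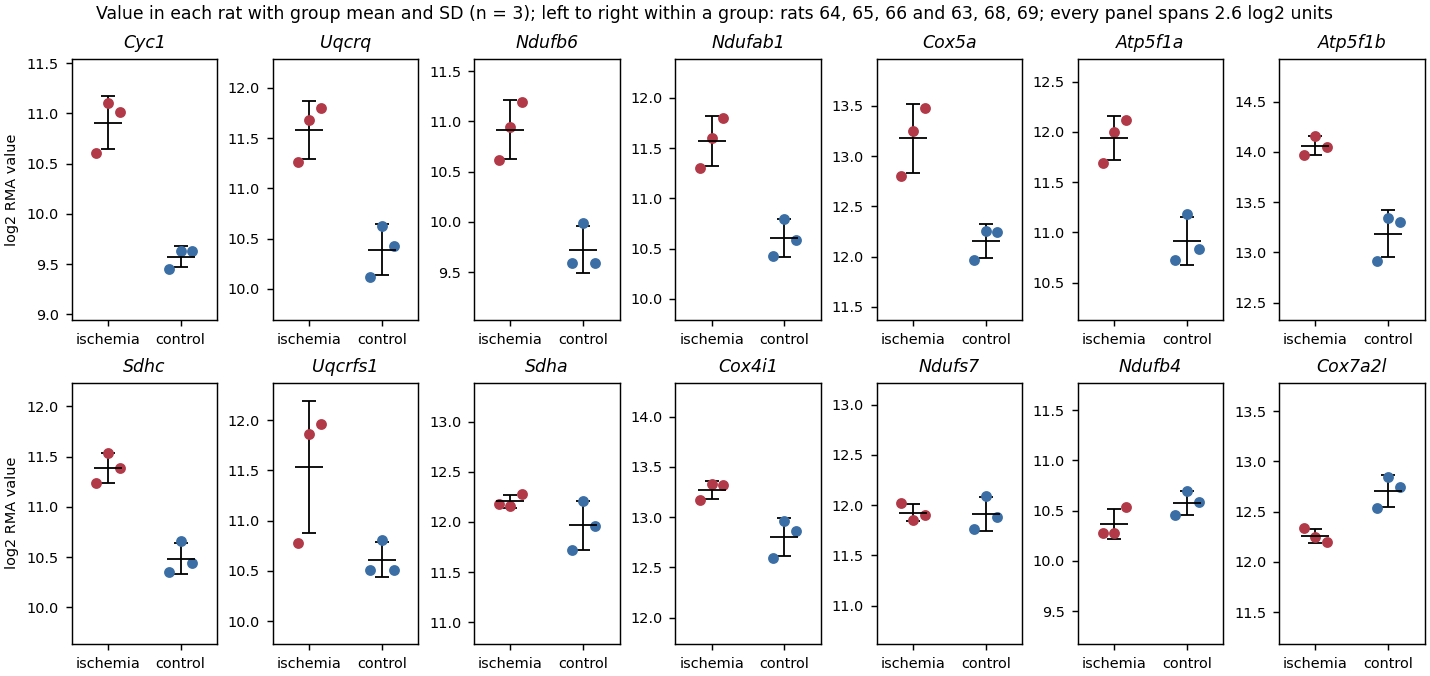
Log2 RMA value of 14 members in each rat (points, red for ischemia and blue for control), with the mean and SD of each group (n = 3). Panels have their own axes but span the same number of log2 units, so that distances can be compared between genes and levels cannot. The 8 genes Cyc1 to Sdhc show groups that do not overlap, Uqcrfs1 has a single ischemic rat among the controls, and Cox7a2l is the gene whose ischemic rats lie below all controls.

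Complex IV, cytochrome c oxidase, hands the electrons to oxygen. Of 19 members on the array, counting Ndufa4, which is now placed in this complex, 13 were tested, 4 rose (Cox5a, Cox7b, Cox5b and Cox7c) and the median was 0.54. These 4 are 30.8%, against 16.8% of all genes that rose. Cox5a, a subunit on the matrix side, measured 12.80, 13.25 and 13.48 in ischemic rats, against 11.96, 12.25 and 12.25 in controls. Rat 64 was the lowest ischemic rat and still above all controls. The fold change of 1.02 ± 0.19 (SE, adjusted p = 0.00452) was 2.03-fold. Cox5b, its neighbour that binds zinc, had 13, 13.04 and 13.17 in ischemic rats, against 12.19, 12.44 and 12.40 in controls. The ischemic rats lay close together and apart from the controls, with 0.73 ± 0.13 (SE, adjusted p = 0.00371). Cox7b was at 12.91, 13.24 and 13.37 in ischemic rats, against 12.10, 12.47 and 12.41 in controls with 0.84 ± 0.17 (SE, adjusted p = 0.0058), and Cox7c at 12.42, 12.55 and 12.71 in ischemic rats, against 11.73, 12.04 and 11.99 in controls with 0.64 ± 0.14 (SE, adjusted p = 0.00953). In both the groups did not overlap and control 63 was the lowest control.

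Several subunits of complex IV exist in a general form and in a form known from muscle, testis or lung. Each gene was compared only with its own controls, since values of different probe sets are not levels that can be set side by side. Cox4i1, the general form of a regulatory subunit, measured 13.17, 13.33 and 13.32 in ischemic rats, against 12.59, 12.96 and 12.86 in controls. There was no overlap, and 0.47 ± 0.14 (SE, adjusted p = 0.0305) did not pass. Cox4i2, which replaces it in lung and, in other cells, under hypoxia, was dim and not tested, at 6.996, 6.81 and 6.66 in ischemic rats, against 6.70, 6.41 and 6.71 in controls, with the groups overlapping. Cox6a1 had 12.81, 13.14 and 13.21 in ischemic rats, against 12.43, 12.77 and 12.66 in controls and 0.44 ± 0.16 (SE, adjusted p = 0.0582). Its heart and muscle form Cox6a2 read 7.94, 7.97 and 7.85 in ischemic rats, against 7.09, 7.42 and 7.65 in controls, close to the level for testing, and 0.54 ± 0.16 (SE, adjusted p = 0.0306). In neither did the groups overlap, and neither passed. Cox6b1 was at 11.73, 12.02 and 12.19 in ischemic rats, against 11.24, 11.69 and 11.29 in controls with 0.57 ± 0.18 (SE, adjusted p = 0.0336), and its testis form Cox6b2 at 7.80, 8.31 and 7.66 in ischemic rats, against 7.63, 8.21 and 8.15 in controls with -0.07 ± 0.22 (SE, adjusted p = 0.824). The groups of Cox6b2 were interleaved, and leaving out each rat moved its difference between -0.26 and 0.06. Cox8a, the general form of the smallest subunit, had 13.31, 13.41 and 13.49 in ischemic rats, against 12.80, 13.31 and 13.10 in controls, where control 68 lay just below the lowest ischemic rat, and 0.33 ± 0.16 (SE, adjusted p = 0.123). Cox8b, its muscle form, was dim at 5.35, 5.61 and 5.65 in ischemic rats, against 5.84, 5.67 and 5.88 in controls, with all ischemic rats below all controls. Cox7a1 and Cox7b2 were dim as well, at 6.32 to 6.50 and 4.63 to 4.66 in ischemic rats and 6.23 to 6.96 and 4.62 to 4.796 in controls, with overlap in both.

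Cox7a2l had the opposite direction to most members. It was at 12.34, 12.24 and 12.20 in ischemic rats, against 12.53, 12.84 and 12.75 in controls. All ischemic rats lay below all controls. The fold change of -0.45 ± 0.13 (SE, adjusted p = 0.0284) did not pass with the deposited values. It was -0.62 (adjusted p = 0.00387) after centring on the array median and -0.88 (adjusted p = 0.00742 in limma) after centring on ribosomal protein genes, and it stayed between -0.53 and -0.38 with each rat left out. After the same centrings, 11.9% and 13.7% of all genes fell. The related subunit Cox7a2 has no value here. Ndufa4 had 12.88, 12.85 and 12.86 in ischemic rats, against 12.11, 12.75 and 12.57 in controls, with a narrow ischemia group above a wide control group, and 0.39 ± 0.17 (SE, adjusted p = 0.11). Its relative Ndufa4l2, which is induced by hypoxia in other cells, was dim and not tested, at 6.50, 6.54 and 6.61 in ischemic rats, against 6.53, 6.59 and 6.72 in controls. The groups overlapped.

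**Figure D5:**
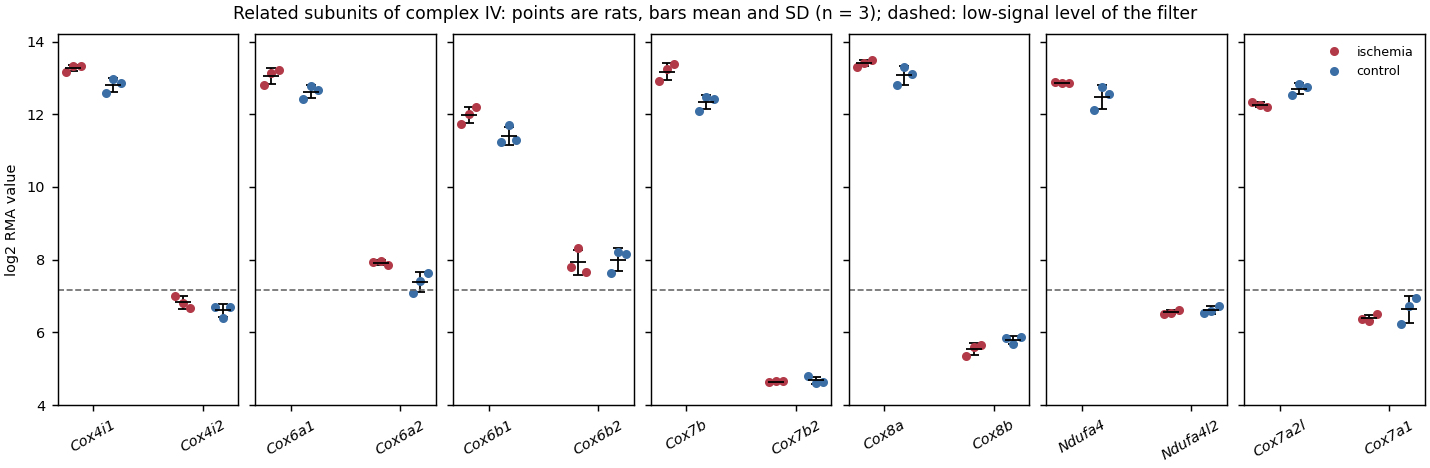
Log2 RMA value in each rat (points, red for ischemia and blue for control), with mean and SD (n = 3), of related subunits of complex IV. The dashed line is the level of 7.16 used for testing. Cox4i2, Cox7b2, Cox8b, Ndufa4l2 and Cox7a1 lie below that line in all rats, and among the brighter genes only Cox7a2l has its ischemic rats below the controls.

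The catalytic subunits of complex IV are encoded by mitochondrial DNA, and 2 of them, COX1 and COX2 in the annotation, had a probe set. COX1 was at 14.12, 13.92 and 13.73 in ischemic rats, against 13.60, 14.22 and 14.45 in controls. The groups overlapped, and the log2 fold change was -0.17 (95% interval -0.69 to 0.35). COX2 had 13.03, 13.06 and 13.15 in ischemic rats, against 13.13, 13.33 and 13.68 in controls, where the groups again overlapped, and a fold change of -0.30 (95% interval -0.67 to 0.07). Neither passed the test, and the difference between nuclear and mitochondrial subunits was not tested. Of 19 tested assembly factors of complex IV, 5 rose (26.3%, against 16.8% of all genes) and 0 fell, with a median of 0.30. They were Cox17, a copper chaperone, at 1.21 (adjusted p = 0.00285 in limma), Lrpprc, which stabilizes mitochondrial mRNAs, at 1.20, Coa7 at 1.06, Cmc1 at 1.03 and Cox10, which makes the heme of the enzyme, at 0.60. Cox20 and Surf1 had all ischemic rats below all controls, at -0.41 and -0.36, and did not pass.

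Complex V had the largest count, with 7 of 16 members that rose (43.75%, against 16.8% of all genes), 0 that fell and a median of 0.55. Of the catalytic head and central stalk 3 of 5 subunits rose, with a median of 0.87. Of the peripheral stalk 1 of 4 rose, with a median of 0.55, and of the small membrane subunits 2 of 5, with a median of 0.52. Atp5f1a, the alpha subunit of the head, measured 11.69, 12.003 and 12.12 in ischemic rats, against 10.72, 11.18 and 10.83 in controls. All ischemic rats lay above all controls. Its fold change of 1.03 ± 0.17 (SE, adjusted p = 0.00308) was 2.04-fold. Atp5f1b, the catalytic beta subunit, was at 13.97, 14.16 and 14.05 in ischemic rats, against 12.91, 13.35 and 13.30 in controls, with a gap between the groups that exceeded the range of each, and 0.87 ± 0.15 (SE, adjusted p = 0.00356). Atp5f1d, the delta subunit of the stalk, had 12.08, 12.35 and 12.46 in ischemic rats, against 11.21, 11.55 and 11.27 in controls. Its groups did not overlap either, and it changed by 0.95 ± 0.16 (SE, adjusted p = 0.00266).

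The other subunits of the head and stalk, Atp5f1c (gamma) and Atp5f1e (epsilon), measured 0.43 and 0.35 and did not pass, although the groups did not overlap. Atp5mc3, one of the genes for the proton-carrying ring, had 13.49, 13.66 and 13.76 in ischemic rats, against 12.68, 13.06 and 12.83 in controls. The groups were apart, and the change was 0.78 ± 0.15 (SE, adjusted p = 0.00473). Atp5po, which joins the stalk to the head, was at 11.80, 12.04 and 12.24 in ischemic rats, against 11.19, 11.43 and 11.05 in controls, with all ischemic rats higher, and 0.80 ± 0.16 (SE, adjusted p = 0.00638). A second, much dimmer probe set of Atp5po gave 0.25 (adjusted p = 0.156), so the call rests on a single probe set. Atp5mpl rose by 0.83 ± 0.16 (SE, adjusted p = 0.00494) and Atp5mg by 0.73 ± 0.15 (SE, adjusted p = 0.00761). Both are small membrane subunits. Atp5mf, a small subunit of high mean that did not pass, had 13.04, 13.17 and 13.15 in ischemic rats, against 12.69, 13.04 and 12.82 in controls, overlapping at control 68, and 0.27 ± 0.14 (SE, adjusted p = 0.148). Atp5if1, the inhibitor that stops the enzyme from splitting ATP when the proton gradient is lost, measured 11.56, 11.31 and 11.64 in ischemic rats, against 11.05, 11.50 and 11.22 in controls. Its groups overlapped at control 68, and 0.25 ± 0.16 (SE, adjusted p = 0.247) did not pass, nor did 0.33 (adjusted p = 0.0695) in a second probe set. None of the 4 assembly factors of complex V passed (limma, median 0.23, 0 at an unadjusted p under 0.05).

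Promoters are shown for 4 members that rose, for Atp5pf, which did not pass (adjusted p = 0.0169 in limma), and for Cox7a2l, 1 of the 3 members below 0, which did not pass either. RefSeq promoter sequences of the rat build GRCr8, 250 bases before to 50 bases after each start, matched 78 of the 87 members. Motifs known for nuclear genes of respiration were searched on both strands: NRF1 as the 10-base palindrome in capitals in the Atp5po promoter, which reads the same on both strands, the ETS motif of GABPA as CCGGAAG and YY1 as AAGATGGCG. NRF1 letters were in 5 members (6.41%), against 2.12% of 8354 tested genes and 0.852% of all 33469 promoters. ETS letters were in 22 members (28.2%), against 19.4% of tested genes and 8.75% of all, and YY1 letters in 11 (14.1%), against 4.18% and 1.73%. At least 1 of the 3 motifs was in 33 members (42.3%), against 24.1% of tested genes and 10.8% of all promoters. The cores of hypoxia response elements, ACGTG and GCGTG, were in 25.6% and 48.7% of the members, against 26.3% and 51.1% of tested genes and 19.3% and 29.7% of all promoters, and a CACGTG site counts on both strands. The 120 bases before the start of 6 members follow, with the letters of NRF1, ETS and YY1 in capitals. Uqcrq and Atp5f1a (both rose) carry an ETS match, Atp5po (rose) an NRF1 match, Atp5pf (0.58, not past) a YY1 and an ETS match, and Ndufb6 (rose) and Cox7a2l (-0.45) none of the 3.
Uqcrq: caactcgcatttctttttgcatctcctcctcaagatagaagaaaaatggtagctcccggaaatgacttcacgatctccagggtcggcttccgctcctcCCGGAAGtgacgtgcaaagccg
Atp5f1a: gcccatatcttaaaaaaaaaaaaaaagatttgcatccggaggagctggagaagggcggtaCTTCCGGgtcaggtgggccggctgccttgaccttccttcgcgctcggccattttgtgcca
Atp5po: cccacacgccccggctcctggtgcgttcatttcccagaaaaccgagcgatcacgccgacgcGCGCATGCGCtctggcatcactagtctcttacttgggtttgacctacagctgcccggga
Atp5pf: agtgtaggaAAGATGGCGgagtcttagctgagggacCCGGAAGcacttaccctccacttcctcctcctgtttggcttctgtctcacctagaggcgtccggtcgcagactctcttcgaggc
Ndufb6: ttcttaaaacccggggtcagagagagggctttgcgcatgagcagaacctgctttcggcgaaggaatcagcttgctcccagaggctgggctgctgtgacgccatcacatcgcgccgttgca
Cox7a2l: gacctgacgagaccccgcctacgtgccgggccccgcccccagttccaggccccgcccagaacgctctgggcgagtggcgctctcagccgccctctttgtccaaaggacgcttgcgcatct
These lie at chr10:38089979-38090098 (minus strand, Uqcrq), chr18:73567417-73567536 (plus strand, Atp5f1a), chr11:44657484-44657603 (minus strand, Atp5po), chr11:37375102-37375221 (minus strand, Atp5pf), chr5:60206153-60206272 (minus strand, Ndufb6) and chr6:16936454-16936573 (plus strand, Cox7a2l). The median log2 fold change was 0.46 for members with and 0.47 for members without ETS letters, 0.42 and 0.51 for YY1, and 0.62 and 0.47 for NRF1. Of the 21 matched members that rose, 6 had the ETS, 1 the YY1 and 1 the NRF1 letters. A match is no sign of binding here, and no binding was measured.

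The genes for these factors and for other regulators of mitochondrial content were on the array. Of 13 such regulators tested, 3 rose (23.1%, against 16.8% of all genes) and 0 fell, with a median of 0.47. Esrra, a nuclear receptor that activates genes of respiration, was at 10.16, 10.23 and 10.51 in ischemic rats, against 8.97, 9.0025 and 8.89 in controls. The groups stood far apart, at a fold change of 1.35 (adjusted p = 0.000503 in limma). Pprc1, a coactivator of the PGC-1 family, had 10.48, 10.46 and 10.68 in ischemic rats, against 9.47, 9.21 and 9.34 in controls, also without overlap, and rose by 1.20 (adjusted p = 0.000668). Tfb2m, a transcription factor of mitochondrial DNA, rose by 0.55, and Tfam, which packs that DNA, measured 0.64 (adjusted p = 0.0139) and did not pass. Nrf1, Gabpa and Yy1, the factors of the 3 motifs, measured -0.22, 0.23 and -0.15, and none passed the test. Ppargc1a, the coactivator PGC-1alpha, was too dim to test.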

How the data were processed

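RNA of sorted CD11b+CD163+ cells was read on 1 array per rat, with the 6 rats as replicates. RNA with integrity numbers above 9.2 was amplified with a 3′ kit and hybridized to Affymetrix rat genome arrays. For 31099 probe sets the authors deposited values on the log2 scale, described as RMA (background correction, quantile normalization, probes summarized) and used unchanged here, although control 63 had lower upper percentiles than the other arrays. Submitters' notes name limma 3.18 and R 3.3.1. Of the probe sets, 20826 had 1 symbol, 436 several and 9780 none. No genome positions were used for the array, and 0 columns belonged to no sample. Quantile normalization forces like distributions on arrays and can shift gene groups, so scalings were varied.

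Groups were compared in limma 3.58.1 (lmFit, eBayes; R 4.3.3), two-sided, with Benjamini-Hochberg adjustment over 9928 genes. An exact permutation test of a single gene could not fall below p = 0.1 with 3 rats a group. The script was tested on simulated data. Python 3.11.15 counted promoter motifs. Markers were summed on the linear scale.

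The members and lists were chosen with earlier results of these data known. Values per rat are given for up to 6 members past the test in each complex (otherwise the 3 largest rises and falls), core subunits, isoform pairs, the brightest member not past the test and members whose probe sets differ. Others were named after their values were seen. Of related lists, up to 3 members past the test were named, and more where their values were of use. Alternatives covered the filter, choice of probe set, scaling, moderation, weights, thresholds and leaving out each rat. An array has no read depth, and the number of rats limits precision. CD163-negative cells and other experiments of the study are not analysed here.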

Additional observations from a re-analysis of the deposited data

How the results depend on the processing

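Each setting changed 1 choice and kept the rest, except where 2 are named together. With each of the 6 rats left out in turn, the members that rose numbered 1 to 19 (22 with all rats), with 0 to 5 in complex I, 0 to 1 in its assembly factors, 0 to 1 in complex II, 1 to 4 in complex III, 0 to 3 in complex IV and 0 to 6 in complex V, and none fell. The medians then ran between 0.40 and 0.55 for all members, 0.31 and 0.48 for complex I, 0.51 and 0.72 for complex I assembly factors, 0.19 and 0.32 for complex II, 0.54 and 0.67 for complex III, 0.39 and 0.56 for complex IV, 0.49 and 0.63 for complex V, with Ndufs7 between -0.062 and 0.11 and Cox6b2 between -0.26 and 0.063. Centring arrays on their median gave 14 up and 1 down (up: 4 in complex I, 0 in its assembly factors, 1 in complex II, 2 in complex III, 2 in complex IV and 5 in complex V), medians of 0.29 for all members, 0.22 for complex I, 0.47 for complex I assembly factors, 0.10 for complex II, 0.43 for complex III, 0.36 for complex IV and 0.38 for complex V, and the opposite sign for Ndufs7 (-0.16). Repeating the quantile normalization gave 16 up and 1 down (up: 4 in complex I, 1 in its assembly factors, 1 in complex II, 2 in complex III, 3 in complex IV and 5 in complex V), medians of 0.29 for all members, 0.20 for complex I, 0.44 for complex I assembly factors, 0.075 for complex II, 0.40 for complex III, 0.39 for complex IV and 0.36 for complex V, and the opposite sign for Ndufs7 (-0.19) and Sdhd (-0.015). Centring on the mean of cytosolic ribosomal protein genes gave 1 up and 1 down (up: 0 in complex I, 0 in its assembly factors, 0 in complex II, 1 in complex III, 0 in complex IV and 0 in complex V), medians of 0.030 for all members, -0.042 for complex I, 0.20 for complex I assembly factors, -0.16 for complex II, 0.16 for complex III, 0.10 for complex IV and 0.11 for complex V, and the opposite sign for Ndufs7 (-0.42), Ndufs8 (-0.18), Ndufv1 (-0.11), Ndufa1 (-0.23), Sdha (-0.20), Sdhb (-0.13), Sdhd (-0.25), Uqcr11 (-0.14), Cox8a (-0.10), Ndufa4 (-0.049), Atp5mf (-0.17), Atp5if1 (-0.19), Ndufs4 (-0.039), Ndufs6 (-0.18), Atp5f1c (-0.0085) and Atp5f1e (-0.082). Centring on the median of these genes, added after seeing the data, gave 1 up and 2 down, medians of -0.086 for all members, -0.16 for complex I, 0.088 for complex I assembly factors, -0.28 for complex II, 0.047 for complex III, -0.017 for complex IV and -0.0016 for complex V, and the opposite sign for Ndufv2 (-0.029), Ndufs7 (-0.54), Ndufs8 (-0.30), Ndufv1 (-0.23), Ndufa1 (-0.35), Ndufa9 (-0.087), Sdha (-0.31), Sdhb (-0.25), Sdhd (-0.36), Uqcr11 (-0.26), Cox4i1 (-0.085), Cox6a1 (-0.12), Cox6a2 (-0.017), Cox8a (-0.22), Ndufa4 (-0.16), Atp5mf (-0.28), Atp5if1 (-0.30), Ndufs4 (-0.15), Ndufs6 (-0.30), Uqcrc2 (-0.010), Atp5f1c (-0.12) and Atp5f1e (-0.20). Centring on their mean without control 63, added likewise, gave 1 up and 1 down, medians of 0.18 for all members, 0.092 for complex I, 0.29 for complex I assembly factors, -0.033 for complex II, 0.33 for complex III, 0.17 for complex IV and 0.27 for complex V, and the opposite sign for Ndufs7 (-0.28), Ndufs8 (-0.058), Ndufa1 (-0.14), Sdha (-0.10), Sdhd (-0.16), Uqcr11 (-0.012), Cox8a (-0.020), Ndufa4 (-0.014), Atp5mf (-0.028) and Atp5if1 (-0.072). In both, the call up was in complex III. The calls down were 1 in complex IV each time and, with the median, 1 in complex I. Over all genes, 3.74% rose and 25.8% fell with the median. With the mean and without control 63, 5.13% of all genes rose and 5.21% fell. Adding a low-variability filter left 46 members with medians of 0.65 for all members, 0.57 for complex I, 0.90 for complex II, 0.79 for complex III and 0.78 for complex V. No filter gave 19 up, 0 among the assembly factors, and a median of 0.39 in complex IV, where 10.3% of all genes rose. The 60th percentile filter, the mean of all probe sets and an intensity trend gave 2 assembly factors up each. Array weights gave 37 up and 1 down (up: 9 in complex I, 3 in its assembly factors, 1 in complex II, 6 in complex III, 7 in complex IV and 11 in complex V). An adjusted p under 0.05 gave 46 up and 1 down (up: 14 in complex I, 5 in its assembly factors, 1 in complex II, 6 in complex III, 8 in complex IV and 12 in complex V). Calls that also had a log2 fold change beyond 1 gave 6 up and 0 down (up: 1 in complex I, 1 in its assembly factors, 0 in complex II, 2 in complex III, 1 in complex IV and 1 in complex V). These 6 are 7.5% of the members, near the 8.15% of all genes that rose beyond 1. A log2 fold change beyond 2, and limma without moderation, gave 0 in each complex. Array weights also turned Ndufs7 to -0.049 and Cox6b2 to 0.093. The cause of these changes was not tested, beyond that a fit without a rat has fewer samples. No paired analysis was possible because the rats of the groups share no numbers. With 3 rats a group, small differences could not be detected.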

Other observations

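Other mitochondrial genes around the respiratory chain were read in the same fit (limma, ischemia minus control, adjusted p under 0.01 over all genes tested), where 16.8% of all genes rose, 5.99% fell and the median was 0.10. In MICOS, the complex that shapes the cristae in which the chain sits, 4 of 6 genes rose and the median was 0.78. Chchd6 measured 9.67, 10.20 and 10.22 in ischemic rats, against 8.25, 8.53 and 8.71 in controls, so that the groups were far apart, and it rose by 1.53 (adjusted p = 0.00103). Apoo, Chchd3 and Immt, the last of which encodes mitofilin, rose by 0.86, 0.80 and 0.77.

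In a list of uncoupling proteins and of carriers and pores that move ADP, ATP and phosphate, 4 of 8 genes tested rose and the median was 0.56. Vdac1, a pore of the outer membrane, was at 11.46, 11.73 and 11.97 in ischemic rats, against 10.47, 10.78 and 10.71 in controls, without overlap, and rose by 1.06 (adjusted p = 0.00219 in limma). The ADP/ATP carrier Slc25a5 rose by 0.93, and Vdac3 and Vdac2 by 0.62 and 0.61. Ucp2, an uncoupling protein found in macrophages, measured 0.19 and did not pass (adjusted p = 0.427 in limma).

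Coenzyme Q carries electrons between the complexes, and of 11 genes for its synthesis and handling 3 rose and 1 fell, with a median of 0.41. Coq5, Coq3 and Coq4 rose by 0.89, 0.79 and 0.58. Coq8a, an atypical kinase of the synthesis complex, was at 8.52, 7.89 and 7.92 in ischemic rats, against 9.50, 10.20 and 9.71 in controls. All ischemic rats lay below all controls, and the fold change was -1.70 (adjusted p = 0.00136 in limma). Of 5 genes tested that are known to adjust respiration under hypoxia in other cells, 3 rose, with a median of 0.82. These were Pdk1, which limits the entry of pyruvate, at 0.99, Higd1a at 0.83 and the protease Lonp1 at 0.82.

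Mitochondrial ribosomal protein genes, a list added after values had been seen, rose in 34 of 70 cases, with a median of 0.66.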
